A study of Mus musculus with 17 samples.

Results

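Costimulation by the B7 and CD28 families was followed through 5 mouse genes, the ligand genes Cd80, Cd86 and Icosl and the receptor genes Cd28 and Icos. They were taken by name, and all 5 were present among the 28208 genes common to 5 single-cell matrices and among the 48397 genes of 12 bulk count tables. T cells receive an antigen signal through the T cell receptor and a second signal from costimulatory receptors. CD80 and CD86 (B7-1 and B7-2), on the surface of antigen-presenting cells, bind CD28 to activate T cells and bind CTLA-4 to restrain them, while CD80 can also bind PD-L1 on the same cell. ICOS appears on activated T cells and binds ICOS ligand, the product of Icosl, which is carried by B cells, dendritic cells and macrophages and is best known for help from T cells to B cells.

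The single-cell libraries came from pancreatic tumours, taken 3 weeks after orthotopic implantation and sorted for the leukocyte marker CD45, with 1 library per genotype and no treatment. CD4Cre carried Cre recombinase under the Cd4 promoter, flWT_CD4Cre carried that Cre with 1 floxed and 1 wild-type PD-L1 allele, and flfl_CD4Cre carried it with both alleles floxed. The library flfl had both alleles floxed without Cre, and WT was wild type. The bulk libraries, 3 in each of 4 groups, were all labelled as T cells from wild-type spleen given antibodies to CD3 and CD28, with activation read at 72 h. Control received the stimulation alone, Ctrl_Fc added a control Fc protein at 2.5 µg/ml, PD1_Fc added a soluble PD-1 Fc at 2.5 µg/ml, and PDL1_Fc was titled as PD-L1 Fc. For PD1_Fc replicate 3 the treatment label names PDL1 Fc, and for all 3 PDL1_Fc libraries it names PD1 Fc. Titles were followed here. Nothing in the labels says that replicates came from separate animals or cultures, so p-values measure only the spread between these samples.

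Several libraries went against their labels or stood apart. Of 16304 cells kept, T cells made up 1118 (6.86%), from 1.45% of the library labelled flfl_CD4Cre to 18.7% of flfl, although the labels describe tumour-infiltrating T cells. Cd274, the PD-L1 gene whose floxed alleles Cre should remove, reached 47.6 CPM (UMI counts scaled to a common depth) in T cells of the library labelled flfl_CD4Cre (95% Poisson interval 27.7 to 76.2, 17 UMIs). That level lay beside 48.2 CPM (34.4 to 65.6) in CD4Cre and 29.9 CPM (18.7 to 45.2) in flWT_CD4Cre, and above 10.8 CPM (8.10 to 14.1) in flfl and 8.48 CPM (5.59 to 12.3) in WT. Whether the counted reads fall in the floxed exons is not known here. The 3 Cre libraries shared 1387 to 1828 barcodes in each pair, 31.7% to 41.8% of the smaller library, and the 3513 low copies were removed, after which pairs shared 1 to 6. Libraries with Cre used one gene set and the 2 without Cre another, so Cre and file set cannot be told apart. In bulk, the summed level of 8 macrophage markers was 3390 to 3816 CPM in Control and 3433 to 3562 CPM in PDL1_Fc, against 6.95 to 25.7 CPM in Ctrl_Fc and 8.02 to 24.2 CPM in PD1_Fc. Summed over 8 T cell markers the order was the opposite, 21.2 to 23.3 CPM in Control and 18.3 to 19.04 CPM in PDL1_Fc against 393 to 428 CPM in Ctrl_Fc and 390.4 to 424 CPM in PD1_Fc. Cd3g and Trbc2 were at 0 in Control and PDL1_Fc, Trac was also at 0 in Control, and Cd3d was at 0 in Ctrl_Fc and PD1_Fc, with Thy1 also at 0 in PD1_Fc.

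On GRCm38, Cd28 lies at chromosome 1, 60716800 to 60773359, and Icos follows on the same strand at 60977927 to 61000320, 205 kb further on. Both ligands of CD28 lie on chromosome 16, with Cd86 at 36603869 to 36666081 on the minus strand and Cd80 at 38455561 to 38496335 on the plus strand. Icosl is on chromosome 10, 78069302 to 78083913. In GENCODE M21 no exon of the 5 genes overlaps an exon of another gene. Upstream sequence from RefSeq (GRCm38.p6) was matched for 2 of the 5 genes, and it is shown because both ligand genes were higher in migratory dendritic cells than in other dendritic cells. The Cd80 window holds the 250 bases before its RefSeq start (chr16:38458683-38458932, plus strand). In GENCODE M21 the gene starts earlier, at 38455561, so this window lies within the annotated gene, outside its exons. The Icosl window holds 184 bases that end before the first annotated exon (chr10:78069118-78069301, plus strand). Capitals mark an AP-1 motif, TGANTCA, searched on both strands.
Cd80 upstream: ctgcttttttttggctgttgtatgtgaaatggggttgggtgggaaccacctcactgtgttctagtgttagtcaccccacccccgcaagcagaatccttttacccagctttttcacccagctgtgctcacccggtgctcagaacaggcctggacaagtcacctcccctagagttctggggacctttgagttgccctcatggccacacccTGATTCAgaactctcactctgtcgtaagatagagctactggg
Icosl upstream: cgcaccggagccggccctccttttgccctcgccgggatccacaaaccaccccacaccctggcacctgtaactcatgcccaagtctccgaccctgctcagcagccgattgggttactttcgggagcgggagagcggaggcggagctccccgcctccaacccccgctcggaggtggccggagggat
The Cd80 match begins 42 bases before the RefSeq start. Among 32851 RefSeq promoters, 6.75% held this motif in a window of 250 bases and 5.03% in a window of 184 bases. No match to the NF-kB motif was present in either window, and 3.90% and 2.87% of promoters held one at those lengths. A match is a run of letters and not a measured binding site.

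**Figure D1:**
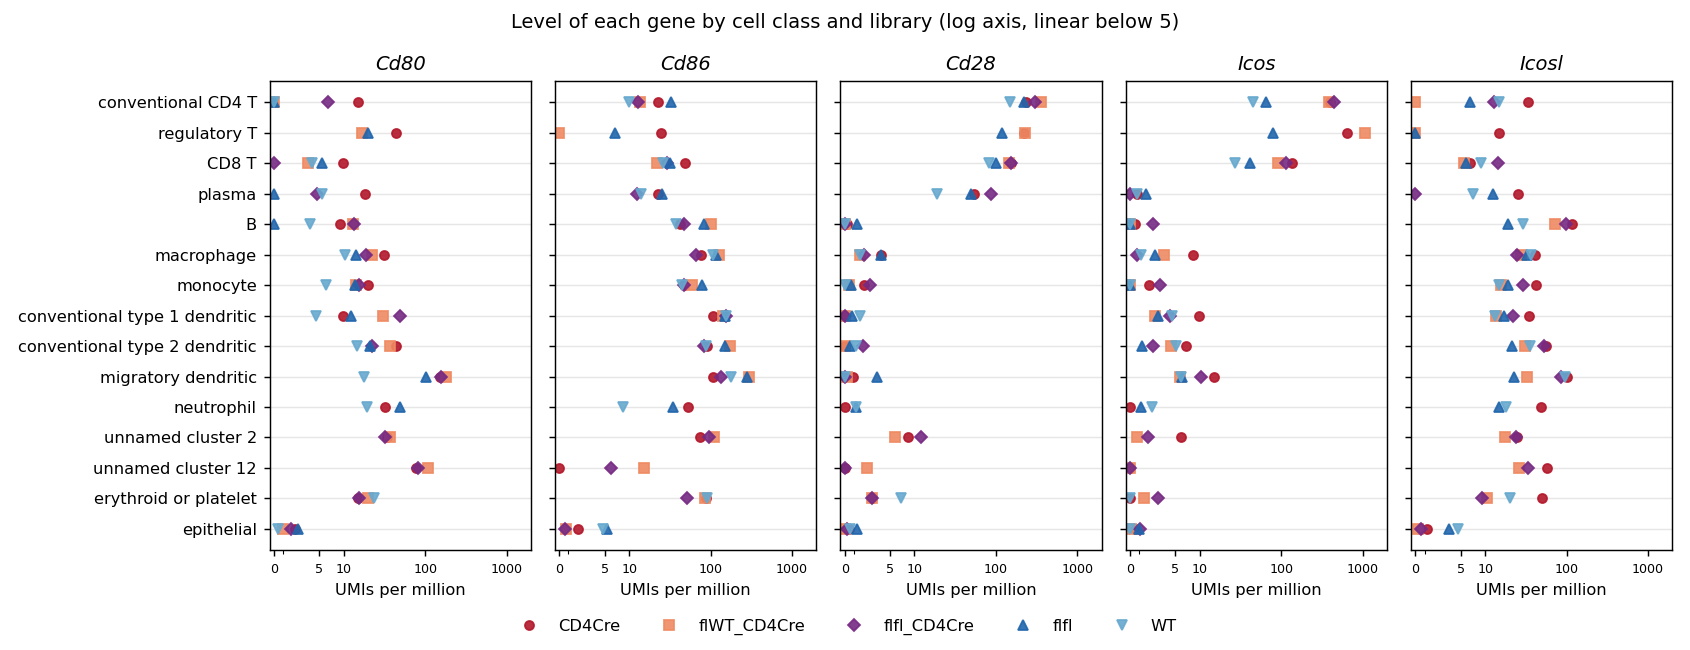
Levels of the 5 genes in CPM (symlog axis, linear below 5 CPM) by cell class, with 1 point per library for sums of at least 10 cells. Cd28 and Icos stand highest in the T cell classes, and Cd80, Cd86 and Icosl in migratory dendritic cells, with B cells beside them for Icosl.

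Cells were clustered without the 5 genes and named by marker genes, and T cells were split by UMIs of Cd4, Cd8a, Cd8b1 and Foxp3. The receptor genes separated T cells from nearly all other classes. Cd28, the receptor for CD80 and CD86, was highest in conventional CD4 T cells, at 238 CPM in CD4Cre (36 cells), 354 in flWT_CD4Cre (14 cells), 299.8 in flfl_CD4Cre (19 cells), 223 in flfl (24 cells) and 149.8 in WT (29 cells), a mean of 253 CPM (SD 77.8, n = 5). In regulatory T cells it was 221 CPM in CD4Cre, 229 CPM in flWT_CD4Cre and 119 CPM in flfl, the 3 libraries with at least 10 such cells. CD8 T cells held 153, 146, 152, 101 and 82.9 CPM in the order CD4Cre, flWT_CD4Cre, flfl_CD4Cre, flfl and WT. The ranges of these 3 classes overlap, and in each class every Cre library stood above flfl and WT. How many of all genes show that library order was not counted. In conventional CD4 T cells the intervals of CD4Cre (183 to 304 CPM) and flfl (154 to 311 CPM) overlapped.

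Cd28 was also measured above the epithelial range in a few classes outside the T and NK lineages. Plasma cells, which secrete antibody, held 53.9 CPM in CD4Cre, 87.9 CPM in flfl_CD4Cre, 50.1 CPM in flfl and 18.8 CPM in WT, a mean of 52.7 CPM (SD 28.3, n = 4). Plasmacytoid dendritic cells held 16.4 CPM (SD 12.4, n = 4). Inside the T and NK lineages, cells without an assigned subset held 91.7 CPM (SD 23.2, n = 4). Unnamed cluster 2, led by Nos2 and Arg1, held 8.70 CPM (SD 3.22, n = 3). Macrophages, monocytes, B cells and the other dendritic classes lay between 0.326 and 2.70 CPM on average, beside 0.070 to 1.33 CPM in epithelial cells, which should lack the gene. Cd28 UMIs were seen in 67.2% of conventional CD4 T cells (82 of 122, exact interval 58.1% to 75.4%), 68.9% of regulatory T cells, 49.1% of CD8 T cells and 40.4% of plasma cells, against 0.778% of epithelial cells. Median depths were 5911, 6676, 7444, 20430.0 and 33141 UMIs in that order. After thinning each cell to 1000 UMIs the shares were 24.0%, 23.0%, 9.33%, 3.37% and 0%. These shares pool the libraries. Of 900 CD8 T cells, flfl and WT gave 471 and 334, but of 122 conventional CD4 T cells only 24 and 29.

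Icos, the receptor induced on activated T cells, was highest in regulatory T cells. Its level there was 638 CPM in CD4Cre (19 cells), 1060.1 CPM in flWT_CD4Cre (14 cells) and 79.4 CPM in flfl (15 cells). The 7 regulatory T cells of flfl_CD4Cre held 1269.8 CPM and the 6 of WT 81.8 CPM, cells too few for the sums that were tested. Regulatory T cells therefore fell into a high set with Cre and a low set without it.

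In conventional CD4 T cells Icos stood at 399.8, 381 and 440.2 CPM in CD4Cre, flWT_CD4Cre and flfl_CD4Cre, on 106, 28 and 69 UMIs. The libraries flfl and WT held 65.5 and 44.9 CPM, on 10 and 9 UMIs, and the 2 sets did not overlap. CD8 T cells showed the same order, with 134, 90.6 and 116 CPM in those Cre libraries against 40.96 and 27.1 CPM. This difference had no test, since Cre and file set cannot be told apart and each genotype is 1 library. The share of all genes that part the 2 sets in T cells was not counted. Migratory dendritic cells held 5.78 to 14.7 CPM, above their own library's cDC2 in 5 of 5 libraries, and the remaining classes outside the T and NK lineages averaged at most 4.94 CPM.

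Shares of cells with an Icos UMI are given by library set, since 805 of 900 CD8 T cells but 53 of 122 conventional CD4 T cells came from libraries without Cre. With Cre an Icos UMI was found in 95% of 40 regulatory T cells, 79.7% of 69 conventional CD4 T cells and 49.5% of 95 CD8 T cells. Without Cre the shares were 52.4% of 21, 26.4% of 53 and 23.7% of 805, so conventional CD4 and CD8 T cells lay close together there. Thinned to 1000 UMIs, they were 55%, 27.9% and 12.6% with Cre and 14.3%, 7.55% and 4.72% without. Over all libraries, migratory dendritic cells gave 7.87% and epithelial cells 0.727%, and 0.583% and 0.0572% after thinning. Both receptor transcripts were seen in the same cell in 67.5% of regulatory, 59.4% of conventional CD4 and 35.8% of CD8 T cells with Cre, and in 47.6%, 17.0% and 12.5% without.

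**Figure D2:**
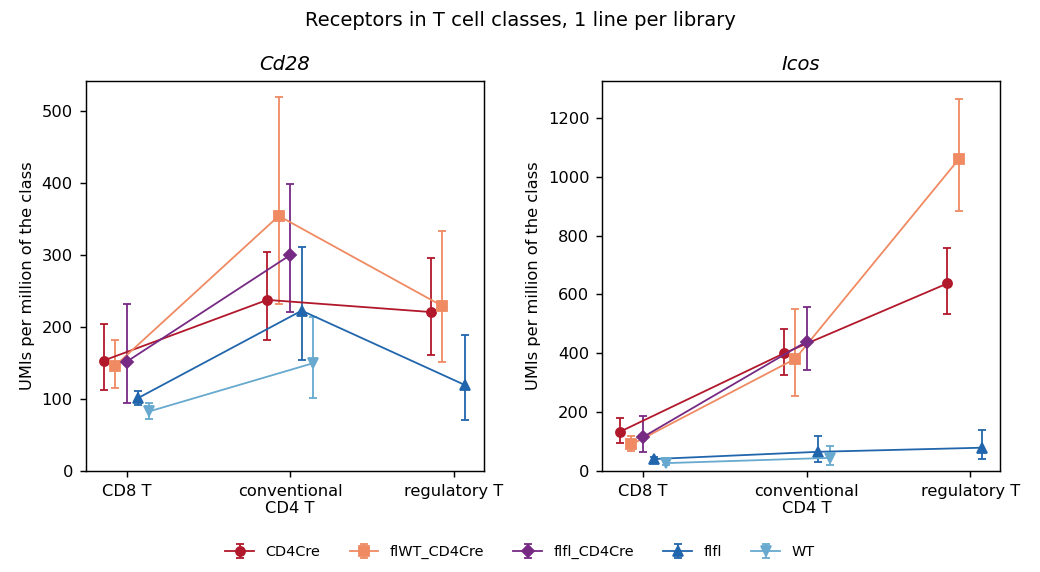
Cd28 and Icos in CPM for the T cell classes, 1 line per library, with 95% exact Poisson intervals. Icos in conventional CD4 T cells runs from 381 to 440.2 CPM in the 3 Cre libraries and from 44.9 to 65.5 CPM in flfl and WT.

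CD8 T cells held less of both receptor transcripts than conventional CD4 T cells of the same library in 5 of 5 libraries. Cd28 was lower by a log2 difference of -0.90 (SE 0.19, edgeR adjusted p = 0.00591) and Icos by -1.39 (SE 0.23, adjusted p = 0.000801), with the library as a block. Both of the 2 tested receptor genes passed in the lower direction, a direction in which 2.88% of all 5008 tested genes passed. Without the library flfl the Cd28 difference was -0.82 (adjusted p = 0.0588), and within the Cre libraries alone it was -0.84 (adjusted p = 0.205). Within the 2 libraries without Cre, the Icos difference was -0.69 (adjusted p = 0.516), and without the block neither gene passed (adjusted p = 0.201 for Cd28 and 0.387 for Icos).

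Of 8 other B7 and CD28 family genes, 6 were tested in this contrast, with 1 higher, as 2.32% of all genes were, and 2 lower. Pdcd1, which encodes the inhibitory receptor PD-1, was higher in CD8 T cells (306 CPM, SD 90.2, against 166 CPM, SD 61.0, n = 5, log2 1.01, edgeR adjusted p = 0.00843). Ctla4, the inhibitory receptor for CD80 and CD86, was lower (68.8 against 201 CPM, log2 -1.29, adjusted p = 0.0217), as was the inhibitory receptor Btla (9.44 against 44.3 CPM, log2 -2.05, adjusted p = 0.0148). Among 18 signalling genes tested, Malt1, a protease of the pathway to NF-kB, was lower (77.9 against 219 CPM, log2 -1.35, adjusted p = 0.00737) and none was higher. None of 6 turnover genes passed. Cd40lg, the helper signal to antigen-presenting cells, and Maf, a transcription factor linked to Icos, were the 2 of 4 helper genes that passed, both lower in CD8 T cells, with Cd40lg at 0.243 against 69.2 CPM (adjusted p = 4.75e-06) and Maf at 9.06 against 487 CPM (adjusted p = 0.0472). The list medians were -0.66, -0.26, -0.28 and -3.62 on the log2 scale for the 4 lists, against 0.02 for all genes.

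Regulatory and conventional CD4 T cells could be compared in 3 libraries. Icos was 1.21 to 2.78 times as high in regulatory T cells in 3 of 3 libraries, a log2 difference of 0.81 (SE 0.30) that did not pass (edgeR adjusted p = 0.0888). Cd28 was lower in 3 of 3, by -0.60 (SE 0.31, adjusted p = 0.259), which did not pass either. Thus 0 of 2 receptor genes passed, where 6.44% of all genes did (3.48% higher and 2.96% lower).

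Ctla4 was the 1 of 5 tested family genes that was higher in regulatory T cells (843 CPM, SD 607, against 228 CPM, SD 111, n = 3, log2 1.60, edgeR adjusted p = 1.62e-05). Pdcd1 was lower (81.0 against 202 CPM, log2 -1.34, adjusted p = 0.00487). Of 14 signalling genes, 2 were lower and none higher, Prkcq, a kinase below CD28 (22.1 against 157 CPM, log2 -2.68, adjusted p = 2.16e-06), and Nfatc1, a transcription factor activated by calcium (66.9 against 225 CPM, log2 -1.70, adjusted p = 0.000194). None of 5 turnover genes passed. Of 2 helper genes tested, Cd40lg was lower (adjusted p = 2.77e-06), with 0 UMIs in regulatory T cells of all 3 libraries against a mean of 87.9 CPM (SD 43.4). The medians were -0.18, -0.59, -0.10 and -3.32 for the 4 lists, against -0.03 for all genes.

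Among the ligand genes, Cd80 stood out most sharply by class. Migratory dendritic cells, which carry antigen to lymph nodes and express Ccr7 and Fscn1, held 152 CPM in CD4Cre, 182 in flWT_CD4Cre, 156 in flfl_CD4Cre, 101 in flfl and 17.7 in WT, a mean of 122 CPM (SD 65.1, n = 5). The WT value rests on 3 UMIs in 17 cells and has an interval of 3.66 to 51.9 CPM. Next came cluster 12, led by Rsad2 and Acod1, in which 6 neutrophil markers passed. It stays unnamed because its median depth was 0.239 times that of its libraries and no neutrophil marker was among its top 10 genes. Its Cd80 level was 76.2, 108 and 81.4 CPM in the 3 Cre libraries, below migratory dendritic cells in 3 of 3. In cDC2, the type 2 conventional dendritic cells that prime CD4 T cells, the values were 44.1, 37.1, 22.5, 20.7 and 14.7 CPM in the order CD4Cre, flWT_CD4Cre, flfl_CD4Cre, flfl and WT. Macrophages held 31.6, 22.1, 18.6, 14.2 and 10.4 CPM in that order. In both of these classes each Cre library stood above flfl and WT, an order not counted over all genes. Macrophages with and without Cre came largely from different clusters. Cluster 3 held 34.2, 25.6 and 23.5 CPM of Cd80 in CD4Cre, flWT_CD4Cre and flfl_CD4Cre. In flfl and WT, cluster 6 held 20.6 and 25.8 CPM and cluster 1 held 9.42 and 8.26 CPM. The part of cluster makeup in this order was not tested.

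The classes after cluster 12 were close together. Unnamed cluster 2 averaged 34.3 CPM (SD 2.19, n = 3), neutrophils 33.6 CPM (SD 15.1, n = 3), regulatory T cells 27.0 CPM (SD 14.9, n = 3), cDC1, the type 1 conventional dendritic cells that prime CD8 T cells, 21.04 CPM (SD 18.1, n = 5), erythroid or platelet cells 18.4 CPM (SD 4.21, n = 4) and monocytes 13.8 CPM (SD 5.01, n = 5). The ranges of each pair of neighbours in this order overlap. B cells held 8.86, 13.1 and 13.4 CPM in the Cre libraries, 0 in flfl and 4.004 CPM in WT. The remaining T and NK classes averaged at most 4.62 CPM, beside 0.451 to 2.67 CPM in epithelial cells.

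A Cd80 UMI was found in 61.5% of migratory dendritic cells (641 of 1042, exact interval 58.5% to 64.5%), 26.8% of cDC2, 20.7% of cluster 12, 18.9% of macrophages and 3.79% of epithelial cells. Median depths were 10787.5, 13909, 2905.5, 13114 and 33141 UMIs. At 1000 UMIs per cell the shares were 15.6%, 2.35%, 9.45%, 1.84% and 0.286%, which places cluster 12 above cDC2. Migratory dendritic cells contributed 42.1%, 54.9% and 40.4% of all Cd80 UMIs in CD4Cre, flWT_CD4Cre and flfl_CD4Cre. In flfl and WT, where they numbered 59 and 17 cells, macrophages contributed most, 39.1% and 69.6%.

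Cd86 was spread more evenly over antigen-presenting cells. Migratory dendritic cells held 106 CPM in CD4Cre, 295 in flWT_CD4Cre, 135 in flfl_CD4Cre, 283 in flfl and 177 in WT, with a mean of 199 CPM (SD 85.9, n = 5). In cDC1 the values were 108, 142, 157, 152 and 156 CPM, and in cDC2 90.6, 171, 83.3, 149 and 89.1 CPM, in the order CD4Cre, flWT_CD4Cre, flfl_CD4Cre, flfl and WT. Macrophages held 75.5, 127, 67.1, 116 and 108 CPM. Each neighbour in this order overlaps the next in range, and the migratory class exceeded cDC1 in 3 of 5 libraries only.

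Cluster 2, summed in the 3 Cre libraries only, held 93.6 CPM of Cd86 (SD 17.99, n = 3). Macrophages of those libraries held 89.7 CPM (SD 32.2, n = 3). Lower Cd86 levels were measured in B cells, at 62.7 CPM (SD 28.8, n = 5), and in monocytes, at 55.3 CPM (SD 13.8, n = 5). CD8 T cells held 31.6 CPM (SD 10.3, n = 5) and epithelial cells 0.658 to 5.34 CPM. Cluster 12, second highest in Cd80, had 0, 15.04 and 6.03 CPM of Cd86 in the 3 Cre libraries. With a Cd86 UMI were 83.7% of cDC1, 66.2% of cDC2, 64.8% of migratory dendritic cells, 62.7% of macrophages and 20.6% of B cells, against 3.996% of epithelial cells. After thinning, the values were 12.1%, 10.3%, 16.6%, 8.33%, 4.35% and 0.172%, and migratory dendritic cells then came first. Cd80 and Cd86 were seen in the same cell in 44.9% of migratory dendritic cells, 21.1% of cDC2, 13.6% of cDC1 and 13.4% of macrophages. All shares in this paragraph pool the libraries, so class and library set are mixed in them.

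Icosl, which encodes the ligand of ICOS, had the highest mean levels in migratory dendritic cells and B cells. Migratory dendritic cells held 102, 32.5, 85.5, 22.9 and 94.7 CPM in the order CD4Cre, flWT_CD4Cre, flfl_CD4Cre, flfl and WT, with a mean of 67.5 CPM (SD 37.0). B cells held 115, 71.9 and 98.3 CPM in the 3 Cre libraries, on 1341, 77 and 117 UMIs, and 19.2 and 28.8 CPM in flfl and WT, on 14 and 36 UMIs. Levels in B cells of the 2 sets did not overlap, while levels in migratory dendritic cells did. The share of all genes without overlap in B cells was not counted. The B cells came from different clusters in the 2 sets, since clusters 0 and 16 were 100% and 99.4% from Cre libraries and cluster 18 was 0.338%.

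In cDC2 the Icosl level averaged 39.3 CPM (SD 14.5, n = 5), in macrophages 32.6 CPM (SD 6.88, n = 5) and in monocytes 24.2 CPM (SD 11.4, n = 5). Cluster 12 held 38.9 CPM (SD 16.2, n = 3) and cDC1 20.1 CPM (SD 8.71, n = 5), and all of these ranges overlap. Gamma-delta T cells, 23 cells in 2 libraries, held 14.6 and 91.1 CPM. CD8, conventional CD4 and regulatory T cells averaged at most 13.6 CPM beside 0.315 to 4.66 CPM in epithelial cells. The order of shares of cells with an Icosl UMI depended on the library set, and 2157 of 2763 B cells came from CD4Cre. With Cre a UMI was found in 42.2% of B cells, 35.5% of migratory dendritic cells, 45.6% of cDC2 and 33.4% of macrophages, and at 1000 UMIs per cell in 11.3%, 7.14%, 5.26% and 3.05%. Without Cre B cells came last at full depth, at 14.1% against 30.3%, 25.9% and 33.0%. At 1000 UMIs the shares were 4.04%, 6.58%, 2.77% and 3.61%, with B cells then above cDC2 and macrophages. Epithelial cells gave 1.58% with Cre, 12.6% without, and 0% in both after thinning.

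**Figure D3:**
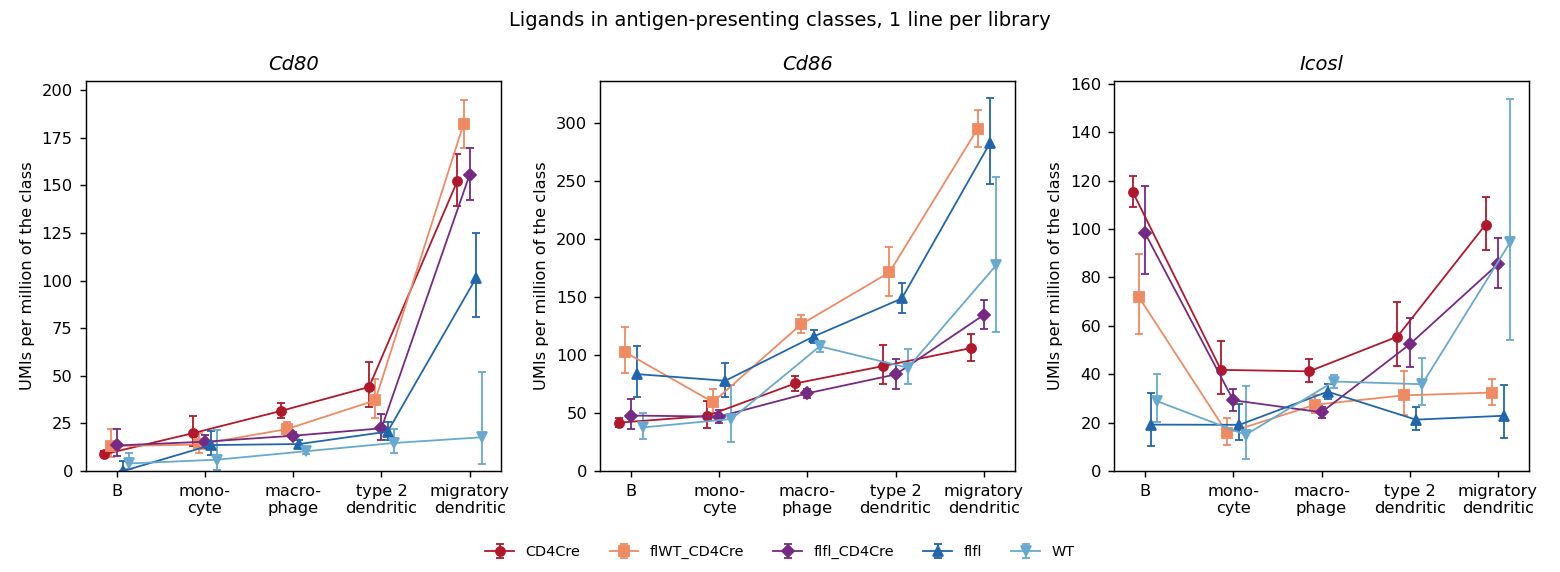
Cd80, Cd86 and Icosl in CPM for antigen-presenting classes, 1 line per library, with 95% exact Poisson intervals. Cd80 reaches 101 to 182 CPM in migratory dendritic cells of all libraries but WT, and Icosl in B cells runs from 71.9 to 115 CPM with Cre and from 19.2 to 28.8 CPM without.

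Migratory dendritic cells held more of all 3 ligand transcripts than cDC2, in 5 of 5 libraries each. The log2 difference was 2.32 for Cd80 (SE 0.20, edgeR adjusted p = 8.92e-08), 0.83 for Cd86 (SE 0.12, adjusted p = 8.75e-06) and 0.73 for Icosl (SE 0.17, adjusted p = 0.000832). Icos was also higher, by 1.35 (SE 0.37, adjusted p = 0.00391), at low levels of 8.55 against 4.08 CPM. So 4 of 4 tested genes passed in the higher direction, in which 26.6% of all 9899 tested genes passed. Without the library block Cd86 (adjusted p = 0.0886) and Icosl (adjusted p = 0.114) did not pass, and within the 2 libraries without Cre Icosl did not (log2 0.78, adjusted p = 0.0683).

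Genes around the pathway split between these dendritic classes. Of 5 tested family genes 3 were higher and 2 lower, where 28.5% of all genes were lower. Among the higher ones were Cd274, the gene of PD-L1, which can bind CD80 (302 CPM, SD 153, against 73.9 CPM, SD 45.5, n = 5, log2 2.22, edgeR adjusted p = 6.99e-10), and Pdcd1lg2, the gene of PD-L2 (129 against 55.2 CPM, log2 1.31, adjusted p = 7.67e-06). Vsir, the gene of the inhibitory ligand VISTA, was lower (23.9 against 69.6 CPM, log2 -1.65, adjusted p = 3.75e-08), as was Btla (35.4 against 62.7 CPM, log2 -0.81, adjusted p = 0.000445). Of 16 signalling genes 4 were higher and 5 lower, with Rel, an NF-kB subunit, at 685 against 140 CPM (log2 2.46) and Pik3r1, the regulatory subunit of PI3 kinase, at 528 against 92.1 CPM (log2 2.60). Pik3cd, a catalytic subunit of that kinase, was lower at 19.5 against 104 CPM (log2 -2.24), as was Vav1, an exchange factor below CD28, at 21.1 against 58.8 CPM (log2 -1.42).

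Of 8 turnover genes 2 were higher and 3 lower. March1, a ubiquitin ligase known to take CD86 and MHC class II off the cell surface, was lower at 3.56 CPM (SD 1.43) against 86.8 CPM (SD 42.1, n = 5, log2 -4.95, edgeR adjusted p = 2.19e-13), and Itch, another ubiquitin ligase, was lower at 60.4 against 123 CPM (log2 -0.97). Cblb, a ubiquitin ligase that restrains T cells lacking CD28 signals, was higher at 203 against 10.1 CPM (log2 4.44, adjusted p = 3.51e-14), and Rc3h2, a gene of the Roquin family that represses Icos mRNA, was higher at 56.1 against 40.97 CPM (log2 0.59). Of 6 helper genes 2 were higher, Cd40 (151 against 46.1 CPM, log2 1.83) and Bcl6 (29.6 against 20.995 CPM, log2 0.72). Lower were Ciita, the activator of MHC class II genes (38.3 against 484 CPM, log2 -3.55), and Maf (3.70 against 9.84 CPM, log2 -1.14). Medians were 1.31, -0.01, -0.09 and -0.59 for the family, signalling, turnover and helper lists, against -0.02 for all genes.

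Between cDC2 and macrophages the ligand genes differed less. Cd80 was higher in cDC2 in 5 of 5 libraries by a log2 difference of 0.58 (SE 0.13, edgeR adjusted p = 0.00211). Cd86 was higher in 4 of 5 libraries, with a difference of 0.28 (adjusted p = 0.0613). Icosl was higher in 3 of 5 libraries and lower in flfl and WT, with a difference of 0.28 (adjusted p = 0.371). Neither of these genes passed. Cd28 was lower by -1.71 (SE 0.61, adjusted p = 0.0367), at levels of at most 3.997 CPM in every library. Thus 1 of 5 genes passed higher, where 19.7% of all genes did, and 1 of 5 lower, where 23.2% did. The Cd80 call was lost when doublets were kept (adjusted p = 0.0606) and without the block (adjusted p = 0.182). The Cd28 call was lost with DESeq2 (adjusted p = 0.0855), when doublets were kept (adjusted p = 0.148), without CD4Cre (adjusted p = 0.113) and without flWT_CD4Cre (adjusted p = 0.0796).

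Within the same contrast 2 of 7 family genes were higher in cDC2 and 3 lower. Pdcd1lg2 stood at 55.2 against 31.0 CPM (log2 0.87, edgeR adjusted p = 6.25e-05) and Btla at 62.7 against 4.21 CPM (log2 4.10), while Vsir stood at 69.6 against 246 CPM (log2 -1.76) and Cd276, the gene of B7-H3, at 0.254 against 5.96 CPM (log2 -4.10). Signalling genes were more often higher, 9 of 17 against 3 lower, with Fyn, a kinase, at 158 against 31.1 CPM (log2 2.43) and Nfkb1 at 205 against 110 CPM (log2 1.00). Of 8 turnover genes 2 were higher and 2 lower, among them Lrba, which protects CTLA-4 from breakdown, at 40.8 against 7.54 CPM (log2 2.36), and March8, a relative of March1, at 4.42 against 22.6 CPM (log2 -2.37). Helper genes were 4 higher and 1 lower of 6, with Irf4 at 31.6 against 8.37 CPM (log2 1.98), Ciita at 484 against 111 CPM (log2 2.01) and Maf at 9.84 against 314 CPM (log2 -5.03). The list medians were -0.36, 0.41, -0.08 and 0.91, against -0.03 for all genes.

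Monocytes with and without Cre came from different clusters, cluster 7 at 99.9% from Cre libraries and cluster 21 at 0.490%. Macrophage clusters 1 and 6 were 0.670% and 0.571% from Cre libraries, and cluster 3 was 99.3%. The contrast thus joins different cells in the 2 library sets. Monocytes held less Cd86 than macrophages of the same library in 5 of 5 libraries, with a log2 difference of -0.79 (SE 0.14, edgeR adjusted p = 0.00314). This was 1 of 5 genes lower, where 12% of all genes were. Cd80 (log2 -0.43, adjusted p = 0.0861), Icosl (log2 -0.35, adjusted p = 0.29), Cd28 (log2 -0.70, adjusted p = 0.359) and Icos (log2 -0.69, adjusted p = 0.674) did not pass. The Cd86 call was lost with a stricter cell filter (-0.26, adjusted p = 0.354), with classes set by marker UMIs (-0.26, adjusted p = 0.331), with low copies kept (-0.34, adjusted p = 0.235) and without the block (adjusted p = 0.166), and the difference turned to 0.079 when doublets were kept (adjusted p = 0.948). Of 7 family genes 1 was higher, as 8.74% of all genes were, and 3 lower, with Vsir at 365 against 246 CPM (log2 0.54, adjusted p = 0.00225), Cd274 at 22.2 against 102 CPM (log2 -2.16, adjusted p = 4.52e-05) and Pdcd1lg2 at 6.54 against 31.0 CPM (log2 -2.55, adjusted p = 0.000102). Signalling genes gave 2 higher and 2 lower of 18, with Bcl10, the partner of MALT1, at 116 against 73.7 CPM (log2 0.63), Pik3cd at 117 against 79.8 CPM (log2 0.52), Malt1 at 41.2 against 93.7 CPM (log2 -1.11) and Pik3r1 at 49.8 against 70.1 CPM (log2 -0.51). None of 8 turnover and 7 helper genes passed. The medians were -0.31, -0.11, 0.05 and -0.28 for the family, signalling, turnover and helper lists, against -0.03 for all genes.

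B cells held less Cd80 and Cd86 than macrophages. The log2 differences were -1.40 for Cd80 (SE 0.31, edgeR adjusted p = 0.00261) and -0.77 for Cd86 (SE 0.16, adjusted p = 0.00146), and -3.65 for Cd28 (adjusted p = 0.000312) and -3.04 for Icos (adjusted p = 0.0102), both at low levels. Hence 4 of 5 genes were lower, where 35.9% of all genes were. Icosl did not pass over all 5 libraries (log2 0.90, SE 0.49, adjusted p = 0.166), but it was higher in B cells within the 3 Cre libraries (log2 1.65, adjusted p = 6.18e-08) and without flfl (log2 1.30, adjusted p = 0.0388), and the difference within the 2 libraries without Cre was -0.49 (adjusted p = 0.096). With the stricter cell filter Cd80 (adjusted p = 0.0771) and Cd86 (adjusted p = 0.313) did not pass, nor with doublets kept (0.0879 and 0.29) or low copies kept (0.163 and 0.339), and Cd86 was also lost without the block (adjusted p = 0.141). Icos was lost without CD4Cre (adjusted p = 0.293) and with classes set by marker UMIs (adjusted p = 0.244), and Cd28 with those classes (adjusted p = 0.151) and within the libraries without Cre (adjusted p = 0.132).

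Higher in B cells than in macrophages were 27% of all genes. Of 7 family genes 2 were higher, Btla at 135 against 4.21 CPM (log2 4.98, edgeR adjusted p = 0.0146) and Ctla4 at 8.31 against 1.92 CPM (log2 1.77, adjusted p = 0.0135), and 5 were lower, Vsir at 15.9 against 246 CPM (log2 -4.10) and Cd276 at 0.720 against 5.96 CPM (log2 -2.90) among them. Of 19 signalling genes 12 were higher and 3 lower, with Carmil2, a scaffold protein of CD28 signalling, at 17.5 against 0.583 CPM (log2 4.95) and Rel at 209 against 65.6 CPM (log2 1.57), and Akt1 at 31.9 against 83.6 CPM (log2 -1.41). Turnover genes were 4 higher and 1 lower of 8, with Cblb at 55.2 against 13.1 CPM (log2 1.94) and March8 at 1.28 against 22.6 CPM (log2 -4.18). Helper genes were 3 higher and 1 lower of 7, with Irf4 at 51.6 against 8.37 CPM (log2 2.58) and Maf at 6.49 against 314 CPM (log2 -5.65). The medians were -1.54, 0.40, 0.28 and 0.79, against -0.10 for all genes.

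Genes most alike each member were ranked by Pearson correlation of log2(CPM + 10) over 52 library and class sums from 15 classes and 5 libraries, among 7034 genes. These sums share libraries and differ in depth, so the values describe likeness only. Cd28 was most like Skap1 (0.945), Sytl3 (0.942) and Cd6 (0.941), and the genes most like Icos included Cd6 (0.947) and Cd5 (0.931). Cd80 was most like Pfkfb3 (0.878), Ogfrl1 (0.853) and Cd274 (0.842). For Cd86 they were Pkib (0.837), Phf11b (0.815) and Prcp (0.792), and for Icosl Birc3 (0.810), Uba7 (0.808) and Sh2b3 (0.807).

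The comparison of the library labelled flfl_CD4Cre with CD4Cre asks what loss of PD-L1 from T cells changes in the tumour. With 1 library per genotype it had no replicate check and no test, and the Cd274 levels given earlier do not show the loss. Pairs of gene and class needed at least 30 cells in both libraries and at least 20 CPM in the higher one. No T cell class reached 30 cells in the library labelled flfl_CD4Cre, which held 19 CD8, 19 conventional CD4 and 7 regulatory T cells. Neither receptor gene reached 20 CPM in the classes left, so all 20 pairs were of Cd80, Cd86 or Icosl. Of these 20 pairs, 1 passed a change of 1 on the log2 scale. That pair was Icosl in erythroid or platelet cells, at 9.18 CPM on 3 UMIs in the library labelled flfl_CD4Cre and 50.5 CPM on 17 UMIs in CD4Cre, a ratio of 5.50 for CD4Cre over the other (counting interval 1.59 to 29.3). In that class 18.2% of all genes passed the same rule. Its median depth was 0.169 times that of its libraries. Macrophage markers scored second in it, and Ctsk and Mmp12 stood among its top genes beside globin genes.

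The other 19 pairs, which include Cd86 in erythroid or platelet cells (-0.78), had log2 differences from -0.98 for Cd80 in cDC2 to 0.34 for Cd86 in migratory dendritic cells. In their classes 0.91% of genes passed in migratory dendritic cells, 1.01% in cluster 2, 1.37% in monocytes, 1.44% in B cells, 2.55% in macrophages, 2.56% in cDC2 and 26.2% in cluster 12. Set against all 4 other libraries, 10 pairs could be placed, and the library labelled flfl_CD4Cre was within the others' range in 7 and above it in 0. How many of all genes were placed in these ways was not counted, so the counts describe the pairs only. The library labelled flfl_CD4Cre was below the others in 3 pairs. These were Cd86 in cDC2, at 83.3 CPM (interval 71.2 to 97.0) against 89.1 to 171 CPM, Cd86 in macrophages, at 67.1 CPM (63.4 to 70.9) against 75.5 to 127 CPM, and Icosl in macrophages, at 24.3 CPM (22.1 to 26.6) against 27.4 to 41.2 CPM. The intervals cover counting error only. Macrophages of the library labelled flfl_CD4Cre and of flfl or WT came largely from different clusters, with clusters 1 and 6 at 0.670% and 0.571% from Cre libraries and cluster 3 at 99.3%. The Cre libraries also differed in cluster 11, led by Lyve1 and Hal, which held 325 of 967 macrophages (33.6%) of the library labelled flfl_CD4Cre, against 18 of 486 (3.70%) in CD4Cre and 73 of 422 (17.3%) in flWT_CD4Cre. Over all libraries, cluster 11 held 42.9 CPM of Cd86 and 9.39 CPM of Icosl, and cluster 3 held 104.8 and 37.02 CPM. Without cluster 11, Cd86 in macrophages of the library labelled flfl_CD4Cre was 88.6 CPM (83.2 to 94.3), above 74.9 CPM in CD4Cre and below 109 to 137 CPM in the other 3. Icosl was then 33.6 CPM (30.3 to 37.1), within 31.6 to 42.9 CPM. Neither macrophage level was then the lowest of the 5 libraries. Within single clusters, Cd86 of the library labelled flfl_CD4Cre was lowest in cluster 11, at 33.9 against 39.1 to 88.7 CPM. The same held in cluster 14, at 38.2 against 49.4 to 95.4 CPM. Icosl was lowest in cluster 14 (20.3 against 24.5 to 35.8 CPM) but not in cluster 11 (9.99 against 4.43 to 14.9 CPM). In cluster 3 both genes lay between CD4Cre and flWT_CD4Cre. The part of cluster makeup was not tested.

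**Figure D4:**
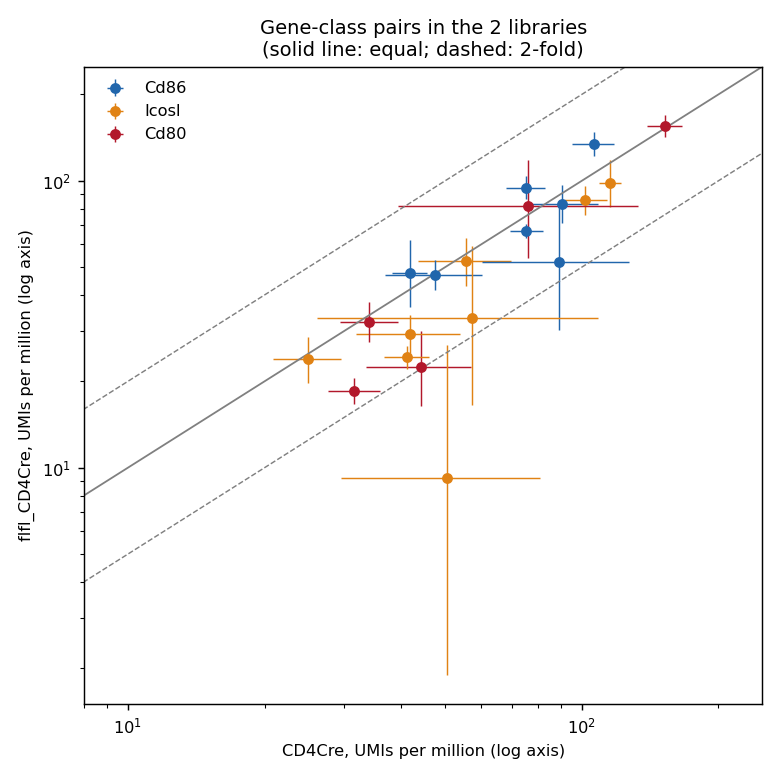
Level in the library labelled flfl_CD4Cre against CD4Cre, in CPM on log axes, for pairs of gene and class. The solid line marks equal levels and the dashed lines a 2-fold change, and Icosl in erythroid or platelet cells (9.18 against 50.5 CPM) lies outside them.

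In the bulk libraries the ligand genes and Icos divided the 4 groups into 2 sets, in the same way as the macrophage and T cell markers. Cd28 was low in all 4 groups. Markers of other cells also differed between the sets. The summed level of 6 B cell markers was 0.162 to 0.431 CPM in Control and 0.187 to 0.269 CPM in PDL1_Fc, against 29.6 to 30.1 CPM in Ctrl_Fc and 19.9 to 26.1 CPM in PD1_Fc. For 6 cDC2 markers it was 76.1 to 85.0 and 81.6 to 87.03 CPM, against 0.288 to 2.32 and 1.60 to 2.67 CPM. For 8 migratory dendritic markers the sets were close, at 414 to 447 and 448 to 475 CPM against 478 to 499 and 411 to 457 CPM, with Il4i1 and Apol7c at 0 in Ctrl_Fc and PD1_Fc. The part of these cells in the levels that follow was not tested.

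Cd80 had 1182, 1162 and 1001 counts in Control and 792, 877 and 837 in PDL1_Fc, but 0, 1 and 1 in Ctrl_Fc and 3, 0 and 0 in PD1_Fc. Cd86 had 1646, 1760 and 1652 counts in Control and 1454, 1407 and 1629 in PDL1_Fc, but 0, 0 and 6 in Ctrl_Fc and 4, 1 and 5 in PD1_Fc. Icosl had 155, 180 and 157 counts in Control and 147, 132 and 156 in PDL1_Fc, none in any Ctrl_Fc library, and 0, 0 and 1 in PD1_Fc. All 3 ligand genes were thus near 0 in the 2 groups that held the T cell markers.

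Icos followed the T cell markers, with 61, 58 and 69 counts in Ctrl_Fc and 91, 64 and 80 in PD1_Fc, against 0, 1 and 1 in Control and 0, 0 and 1 in PDL1_Fc. Cd28 was low in every library, with 18, 13 and 20 counts in Control, 7, 10 and 14 in Ctrl_Fc, 26, 23 and 28 in PD1_Fc and 13, 26 and 29 in PDL1_Fc. Depth differed between the sets, at 14880455 to 18557390 gene counts in Control and PDL1_Fc and 3473884 to 5006301 in Ctrl_Fc and PD1_Fc, where 79.9% to 80.4% of reads were not aligned. Per kb of exon, the order in Control was Cd86 with 25.7 CPM per kb (SD 1.36, n = 3), Cd80 with 16.8 (SD 0.549), Icosl with 1.98 (SD 0.151), Cd28 with 0.156 (SD 0.0405) and Icos with 0.0110. In PD1_Fc it was Icos with 4.79 CPM per kb (SD 0.600) and Cd28 with 0.882 (SD 0.0277) before the ligands. In whole-culture RNA, fewer cells of a type and less RNA per cell cannot be told apart.

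Ctrl_Fc and Control differ by the control Fc in the labels, and 91.8% of all 14653 genes tested passed between them. Of the 5 genes, 4 passed. Relative to Ctrl_Fc, the ratio of summed CPM in Control was 374 for Cd80 (counting interval 103 to 3086, edgeR adjusted p = 2.24e-39), 188 for Cd86 (86.4 to 513, adjusted p = 6.5e-39) and 0.00238 for Icos (0.000286 to 0.00870, adjusted p = 3.36e-25). Icosl was at least 36.6-fold higher in Control, taking 3 counts over the 3 Ctrl_Fc libraries as the floor (adjusted p = 1.96e-21), and the exact counting interval of that ratio starts at 29.7. Cd28 did not pass (log2 0.68 for Ctrl_Fc minus Control after TMM scaling, adjusted p = 0.109), and its ratio in CPM was 0.367 for Control over Ctrl_Fc (0.231 to 0.594). Cell makeup, depth and treatment cannot be told apart in this comparison, nor between PD1_Fc and PDL1_Fc, where 5 of 5 genes passed, the receptors higher and the ligands lower in PD1_Fc, and 91.8% of all genes did. With groups set by the treatment label instead of the title, 0 of 5 genes passed between PD1_Fc and PDL1_Fc.

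PD1_Fc against Ctrl_Fc asks what soluble PD-1, which binds PD-L1, changes in activated T cells. Cd28, at 26, 23 and 28 counts against 7, 10 and 14, averaged 5.40 CPM (SD 0.170, n = 3) against 2.53 CPM (SD 0.495, n = 3), and the groups did not overlap, as for 5.54% of all genes in this direction. Its log2 difference was 1.13 (SE 0.38), and it did not pass over all genes (edgeR adjusted p = 0.817, and 0.246 to 1 over the alternatives that gave one). Icos averaged 16.4 CPM (SD 2.06) against 15.8 CPM (SD 1.56), a log2 difference of 0.14 (SE 0.23, adjusted p = 0.99). The ligand genes were at or near 0 in both groups, with log2 differences of 0.37 for Cd80 (SE 1.24, adjusted p = 1), 0.54 for Cd86 (SE 0.78, adjusted p = 0.982) and 2.37 for Icosl (SE 2.13, adjusted p = 0.932). In all, 0 of 5 genes passed, where 7 of 14653 genes did (0.0478%), and 1 of 5 had an unadjusted p under 0.05, as 5.26% of all genes did. DESeq2 gave no adjusted p for Cd28 or Icos.

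None of the pathway genes passed in this comparison, of 5, 18, 8 and 7 tested in the family, signalling, turnover and helper lists. Ctla4 had the smallest p, at 84.6 CPM (SD 2.81) against 70.5 CPM (SD 3.57), a log2 difference of 0.33 (SE 0.13, edgeR adjusted p = 0.919). Next to it in the family list was Pdcd1lg2, on 8 against 2 counts (log2 1.70). In the other lists the smallest p-values belonged to Prkcq (log2 0.20) and Fyn (0.066), to Cblb (0.18) and Itch (0.14), and to Il10, on 7 against 3 counts (0.99), and Ciita (-0.25), with adjusted p from 0.932 to 0.979 by edgeR. The list medians were 0.33, 0.00, 0.03 and 0.06, against 0.05 for all genes.

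PDL1_Fc against Control compares the 2 groups that held macrophage markers. Cd80 averaged 54.3 CPM (SD 4.04, n = 3) against 62.1 CPM (SD 2.03, n = 3), a log2 difference of -0.20 (SE 0.11, edgeR adjusted p = 1). Cd86 averaged 97.0 CPM (SD 4.02) against 94.1 CPM (SD 4.99), and Icosl 9.40 CPM (SD 0.464) against 9.15 CPM (SD 0.698), with log2 differences of 0.04 and 0.03. Cd28 averaged 1.47 CPM (SD 0.538) against 0.956 CPM (SD 0.248), a log2 difference of 0.62 (SE 0.35, adjusted p = 1) with overlapping groups. Icos had 1 count in PDL1_Fc and 2 in Control. So 0 of 5 genes passed, as did 0 of all 14653 genes by edgeR and by DESeq2, and 0 of 5 had an unadjusted p under 0.05, where 3.6% of all genes did.

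Pathway genes gave no call here either. Maf came closest, at 24.5 CPM (SD 2.17) against 18.2 CPM (SD 1.97), a log2 difference of 0.42 (SE 0.11, edgeR adjusted p = 0.489), with Bcl6 next in the helper list (0.15). In the turnover list Itch (0.36) and March1 (0.13) had the smallest p, and in the signalling list Nfatc1 (0.19) was among those with the smallest p. In the family list Ctla4 (1 count against 0) and Pdcd1lg2 (0.45) came first, and all of these had an adjusted p of 1 by edgeR. The list medians were 0.02, 0.01, 0.09 and 0.00, against 0 for all genes.

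**Figure D5:**
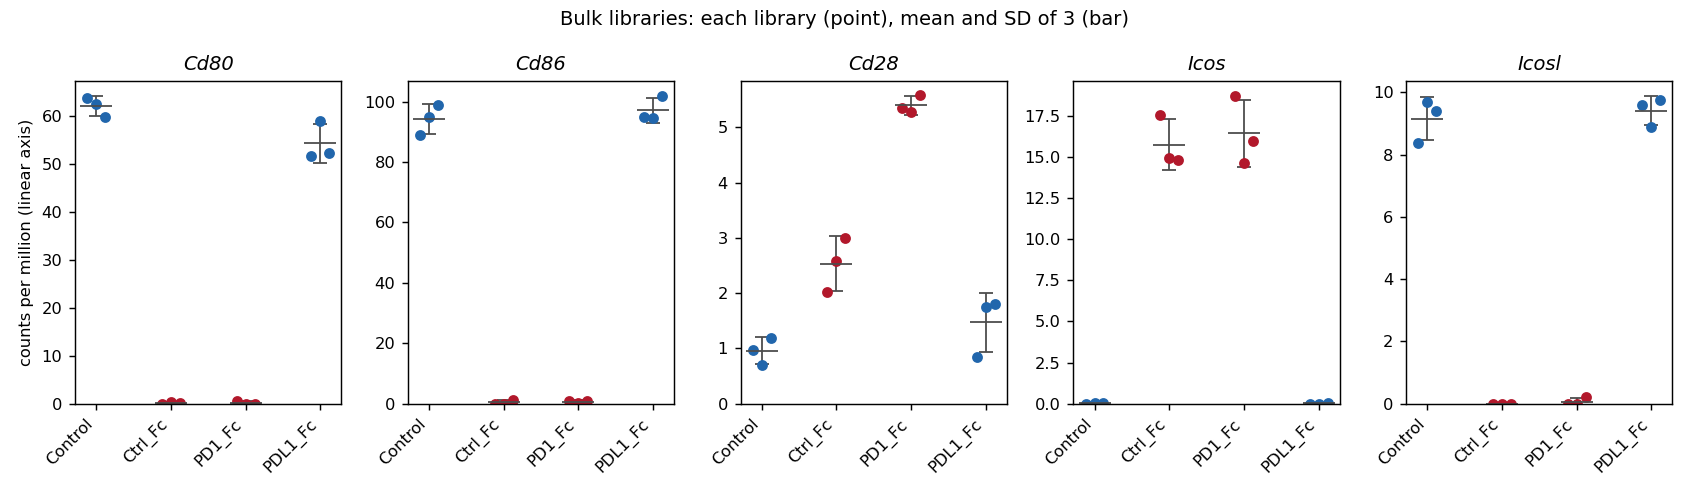
CPM of the 5 genes in the 12 bulk libraries on linear axes, with 1 point per library and bars for the mean and SD of 3. Control and PDL1_Fc (blue) hold Cd80, Cd86 and Icosl, and Ctrl_Fc and PD1_Fc (red) hold Icos, while Cd28 stays at or under a mean of 5.40 CPM.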

How the data were processed

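The deposited bulk tables held raw read counts per gene, and the deposited single-cell matrices held UMI counts. Per the submitters' processing notes, the tools were STAR, HTSeq, bedtools, bcl2fastq and Cell Ranger, and the build was mm10. Cell Ranger was 3.1.0 for the 3 Cre matrices per the file headers. Other versions are not given in the sources used here. RNA was extracted with an RNeasy kit, per the labels' protocols. File names of flWT_CD4Cre and WT disagree with the labels, which were followed.

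A minimum of 200 genes per cell and a maximum of 10% mitochondrial UMIs were applied. A barcode shared by Cre libraries was dropped where another library held more than 5 times its UMIs, and the highest Scrublet scores were removed at 0.8% per 1000 cells. Median UMIs per cell kept were 6135 to 13727. Clustering (scanpy 1.11.5, leidenalg 0.10.2) used 2000 variable genes without the members and pathway genes, 30 components, 15 neighbours and resolution 1. A cluster was named from at least 3 markers of its class.

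Levels are summed counts as CPM with exact Poisson intervals, and shares have exact Clopper-Pearson intervals, both at 95% and covering counting error only. Counts, summed per library and class for at least 10 cells, were tested with edgeR 4.0.16 (R 4.3.3) by quasi-likelihood with TMM, the default filter, robust fitting and the library as a block, and bulk counts in 1 model over 12 libraries. Adjusted p-values are Benjamini-Hochberg values over all genes tested, at a threshold of 0.05, and SE is the log2 difference over the square root of F. DESeq2 1.42.0 was an alternative, and the steps were tested on simulated data. Bulk replicate numbers share no stated source, and deviations of same-numbered libraries correlated at -0.114 to 0.0497.

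Pathway genes were named as those past the threshold or, where none passed, the 2 smallest p per list, and up to 2 per list and direction in class contrasts. Genes alike a member had at least 50 CPM in a class sum of at least 30 cells. The genes and lists were chosen with earlier results of these data known. Of the genes the naming rule selects, 1 is not reported here.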

Additional observations from a re-analysis of the deposited data

Results flagged for a closer look

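The order of Icosl between 2 classes of the same library differed with the library set. B cells minus macrophages gave 74.2 CPM in CD4Cre, 44.5 CPM in flWT_CD4Cre and 74.0 CPM in flfl_CD4Cre, but -13.6 CPM in flfl and -8.18 CPM in WT. For cDC2 minus macrophages the differences were 14.3, 3.82 and 28.1 CPM in those Cre libraries, and -11.6 CPM in flfl and -1.12 CPM in WT. For B cells each Cre library was positive and both libraries without Cre were negative, with intervals of the 2 classes apart in the Cre libraries but overlapping in flfl and WT. For cDC2 the signs divided the same way, but the intervals of the 2 classes overlap in CD4Cre, at 55.6 CPM (43.5 to 69.9) against 41.2 CPM (36.7 to 46.2), and in flWT_CD4Cre and WT, with 31.3 CPM (23.1 to 41.5) against 27.4 CPM (23.9 to 31.4) and 35.9 CPM (27.1 to 46.6) against 37.0 CPM (34.4 to 39.8). The difference between the sets was not tested, and Cre and file set cannot be told apart.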

How the results depend on the processing

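Of 609 log2 differences of the 5 genes under the alternatives, 535 kept their direction and side of the threshold, 29 lost the call, 13 gained it and 32 reversed. Thinning moved 61 of 65 shares of cells, and 14 of 217 class means moved by more than the spread between libraries. A minimum of 30 cells per sum left no fit for regulatory or CD8 against conventional CD4 T cells, so it was not run there.

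For PD1_Fc against Ctrl_Fc, genes past the threshold numbered 7, and 18 with DESeq2, 27 with only the 6 libraries compared, 0 by the treatment label, 2 without the 4 libraries whose labels disagree and 0 to 8 with 1 library left out. None passed without Ctrl_Fc replicate 1 or 2 or PD1_Fc replicate 2, and 1 passed without PD1_Fc replicate 1 or 3. The replicate block gave 34 genes, and it changed no call of the 5 genes. Leaving out 1 library gave log2 ranges of -3.43 to 0.97 for Cd80, -0.028 to 5.46 for Cd86 and -0.0083 to 0.25 for Icos, and the treatment label gave -1.16 for Icos. For PDL1_Fc against Control, 0 genes passed, and 1 did without the filter and 0 to 1 with 1 library left out. Those ranges were -0.029 to 0.070 for Cd86 and -0.051 to 0.067 for Icosl, and the treatment label gave -7.24 for Cd86, -6.11 for Icosl and 7.68 for Icos. For PD1_Fc against PDL1_Fc the treatment label gave 0 of 5 genes and 0 of all genes (13455 by title), with 11.61 for Cd80, 6.55 for Cd86, -0.65 for Cd28, -1.24 for Icos and 5.41 for Icosl. The treatment label puts libraries of both sets in 1 group.

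Without the library block, genes called fell from 211 to 3 for regulatory against conventional CD4 T cells, from 260 to 23 for CD8 against conventional CD4, from 5447 to 2869 for migratory dendritic cells against cDC2, from 4989 to 2112 for cDC2 against macrophages, from 2399 to 776 for monocytes against macrophages and from 7793 to 4590 for B cells against macrophages. Of the 5 genes, those called then numbered 0 rather than 2, 2 rather than 4, 0 rather than 2, 0 rather than 1 and 2 rather than 4 in the last 5 of these contrasts. Genes called with 1 library left out were 88 to 115 for regulatory T cells, 117 to 345 for CD8 T cells and 1580 to 1991 for monocytes. The 5 genes then gave 1 to 2 calls for CD8 T cells, 1 to 3 for cDC2, 1 to 2 for monocytes and 2 to 5 for B cells.

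For regulatory T cells the count of genes was 42 with DESeq2, 108 with a stricter cell filter (500 genes, 5% mitochondrial), 78 with classes by marker UMIs and 88 in the Cre libraries. For CD8 T cells it was 437 without the filter, 168 with that filter and 102 in the Cre libraries, with 1 of the 2 receptors called there and 1 in the libraries without Cre. In those 2 libraries, migratory dendritic cells gave 2544 genes and 2 of the 5 called, B cells 5143 genes and 2, and monocytes 2. For cDC2 against macrophages DESeq2 called 1 of the 5 genes and keeping doublets 0. Icos there reversed to -0.57 with the stricter filter and -0.93 with doublets kept, and Icosl to -0.33 without Cre.

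For monocytes, keeping doublets gave 918 genes. The 5 genes gave 2 calls with doublets kept or the stricter filter, and 0 with classes by marker UMIs or low copies kept. Cd80 reversed to 0.39 with the stricter filter, 0.45 with doublets kept, 0.18 at resolution 2, 0.61 with marker UMIs and 0.17 with low copies kept. Cd86 reversed to 0.079 and Icosl to 0.49 with doublets kept, and Icosl to 0.10 and Icos to 0.46 with low copies kept. For B cells, 1 of the 5 genes was called with the stricter filter, 2 with doublets kept or marker UMIs and 0 with low copies kept, and Icosl reversed to -0.49 without Cre. Pairs that passed the rule between the library labelled flfl_CD4Cre and CD4Cre numbered 1, and 4 with the stricter filter, with doublets kept or with marker UMIs, and 7 with low copies kept. Leaving out macrophage cluster 11 moved 5 of 15 macrophage levels by more than their counting interval. Low copies, Cre, no Cre and the removal of that cluster were chosen as alternatives after seeing the data. The cause was not tested for any of these changes.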

Other observations

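A pattern chosen after its values were seen concerns the order of libraries. Cd86 was highest in flWT_CD4Cre and flfl in migratory dendritic cells (295 and 283 CPM against 106 to 177 in the other 3 libraries), in cDC2 (171 and 149 against 83.3 to 90.6 CPM) and in B cells (103 and 83.6 against 37.6 to 47.9 CPM). Icosl was lowest in those 2 libraries in migratory dendritic cells (32.5 and 22.9 against 85.5 to 102 CPM) and in cDC2 (31.3 and 21.3 against 35.9 to 55.6 CPM). In B cells Icosl did not follow this order, with 71.9 CPM in flWT_CD4Cre above 28.8 CPM in WT. Cd86 was also highest in flWT_CD4Cre and flfl in macrophages (127 and 116 against 67.1 to 108 CPM). The same held in monocytes (59.4 and 77.9 against at most 47.5 CPM). Cd86 in cDC1 did not follow this order, nor did Icosl in cDC1, monocytes or macrophages. In cDC1, Cd86 ran from flfl_CD4Cre (157 CPM) through WT, flfl and flWT_CD4Cre to CD4Cre (108 CPM), and Icosl was lowest in WT in cDC1 and in monocytes and lowest in flfl_CD4Cre in macrophages. These 2 libraries differ in Cre and in file set, and nothing was tested.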
